A study of Mus musculus with 2 samples.

Results

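The CDK inhibitors other than p21 are described here as a family of 6 genes, *Cdkn1b*, *Cdkn1c*, *Cdkn2a*, *Cdkn2c*, *Cdkn2d* and *Cdkn3*, whose rows were looked up by gene symbol in the expression table of mouse cortical neurospheres. Of the 6 members, 4 have a row among the 10666 genes: *Cdkn1b*, *Cdkn2a*, *Cdkn2c* and *Cdkn3*. *Cdkn1c* and *Cdkn2d* have no row in the table used here and were not analysed. By the methods, genes expressed in few cells had been removed, and whether that filter took out these members was not tested. Rows are also missing for *Cdk4*, *Ccna2* and the progenitor marker *Sox2*, so a missing row was not read as lack of expression.

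Cyclin-dependent kinases (CDKs) drive the cell through G1, S, G2 and mitosis, and the inhibitors hold them back in different ways. The Ink4 proteins, encoded by *Cdkn2a*, *Cdkn2b*, *Cdkn2c* and *Cdkn2d*, bind CDK4 and CDK6 and keep D-type cyclins from activating them. The Cip/Kip proteins p21 (*Cdkn1a*), p27 (*Cdkn1b*) and p57 (*Cdkn1c*) bind cyclin-CDK complexes more broadly, and the amount of p27 protein is largely set by its translation and destruction. *Cdkn3* encodes a phosphatase that removes the activating phosphate of CDKs and is known as a gene of late cell-cycle stages. In the developing cortex these genes are known for their part in the choice of progenitors between another division and exit from the cycle.

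Neurospheres grow in suspension from cells of the brain that divide and can give rise to neurons and glia. These came from the dorsal telencephalon of wild-type C57BL/6 mouse embryos at embryonic day 14.5, and were grown with 10 ng/ml EGF and 10 ng/ml bFGF and no other treatment. There are 2 replicate cultures of this 1 condition, with 5748 cells in culture 1 and 7057 cells in culture 2, and nothing in the labels says whether they came from separate animals. Median depth was 19477 UMIs per cell in culture 1 and 14637 in culture 2, and 48 cell barcodes occur in both cultures. Of 8 neural progenitor markers, 6 have a row, and their detection was uneven. *Vim* was found in 99.2% and 99.9%, *Nes* in 93.3% and 89.8%, *Sox9* in 74.3% and 45% and *Pax6*, a marker of dorsal progenitors, in 21.1% and 23.1% of the cells of cultures 1 and 2. The lists for microglia, endothelium and intermediate progenitors had no gene with a row, which does not show that these cells were absent.

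Every value below is a mean of log2(value + 1), where the value is the deposited expression value of a cell, already scaled for that cell's depth. For 1 gene, the value that 1 UMI takes differs between the cultures: for *Cdkn3* it was 1.55 times as large in culture 1 as in culture 2, for *Cdkn1b* and *Cdkn2c* 1.04 times and for *Cdkn2a* 0.961 times. Levels were therefore compared between stages within a culture, and neither between the cultures nor between genes. The cell-cycle position is the authors' angle for each cell, read from 0 to 2π. Cells near 0 or 2π are mostly staged G1 and cells near π G2M, and the paper centres S cells at 0.75π.

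The promoters of the 4 genes with a row are printed because the stage differences below are differences in the RNA of these genes. Which start the RNA came from was not measured. They are RefSeq sequences on GRCm38.p6, each from 250 bases before the start of the gene to 50 bases after it, on the strand of the gene, and RefSeq gives a promoter for 5 of the 6 members. Capitals mark matches, on either strand, to the CHR element TTTGAA, the CCAAT box CCAAT, or an E2F site written as TTTCCCGC, TTTGGCGC or TTTCGCGC, and no match of 1 motif overlaps that of another. CHR and CCAAT elements are known from promoters of genes active in G2 and mitosis, and E2F sites from genes active around the start of S.
Cdkn3, chr14:46760291-46760590, plus strand: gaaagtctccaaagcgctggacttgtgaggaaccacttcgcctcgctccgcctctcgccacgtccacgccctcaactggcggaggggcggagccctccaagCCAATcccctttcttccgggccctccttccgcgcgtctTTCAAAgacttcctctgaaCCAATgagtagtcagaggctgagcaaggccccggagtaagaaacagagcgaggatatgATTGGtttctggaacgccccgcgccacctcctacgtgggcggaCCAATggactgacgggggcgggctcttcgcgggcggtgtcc
Cdkn2c, upstream start, chr4:109666707-109667006, minus strand: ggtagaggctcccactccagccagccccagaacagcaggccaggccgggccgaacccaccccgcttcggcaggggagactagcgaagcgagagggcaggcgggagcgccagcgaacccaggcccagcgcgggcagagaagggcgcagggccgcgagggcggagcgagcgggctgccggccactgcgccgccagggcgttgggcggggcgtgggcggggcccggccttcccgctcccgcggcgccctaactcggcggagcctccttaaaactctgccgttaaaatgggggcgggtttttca
Cdkn1b, chr6:134920151-134920450, plus strand: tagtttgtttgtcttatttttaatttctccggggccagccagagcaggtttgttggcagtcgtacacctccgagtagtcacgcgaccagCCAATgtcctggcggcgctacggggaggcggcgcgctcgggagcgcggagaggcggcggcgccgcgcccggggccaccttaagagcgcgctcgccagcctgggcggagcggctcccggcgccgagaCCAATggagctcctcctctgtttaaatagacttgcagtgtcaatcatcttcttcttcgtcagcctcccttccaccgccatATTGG
Cdkn2a, upstream start, chr4:89294570-89294869, minus strand: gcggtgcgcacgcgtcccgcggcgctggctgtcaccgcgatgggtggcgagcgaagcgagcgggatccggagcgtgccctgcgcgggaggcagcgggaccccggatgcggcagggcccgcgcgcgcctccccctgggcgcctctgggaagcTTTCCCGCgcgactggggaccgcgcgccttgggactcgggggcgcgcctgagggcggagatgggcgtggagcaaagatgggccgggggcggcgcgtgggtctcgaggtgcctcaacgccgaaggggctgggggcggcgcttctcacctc
Cdkn2a, downstream start, chr4:89282143-89282442, minus strand: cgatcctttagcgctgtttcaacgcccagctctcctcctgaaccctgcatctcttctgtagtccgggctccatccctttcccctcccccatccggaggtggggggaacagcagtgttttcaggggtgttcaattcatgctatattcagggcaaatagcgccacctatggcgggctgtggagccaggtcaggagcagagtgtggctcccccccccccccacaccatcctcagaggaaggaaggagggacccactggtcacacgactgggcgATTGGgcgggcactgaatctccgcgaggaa

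The *Cdkn3* window holds 1 CHR match, which begins 111 bases before the start and reads on the opposite strand, and 4 CCAAT matches, at 149, 92 and 34 bases before the start and at base 10 after it. Among 32851 RefSeq promoters of this length, 17.9% hold a CHR match, 37.4% a CCAAT match and 1.84% an E2F match. The *Cdkn1b* window holds 3 CCAAT matches and no CHR or E2F match. The window of the upstream *Cdkn2c* start has no match to any of the 3 motifs, and that of its second start, which is not printed, has 1 CCAAT match. The upstream *Cdkn2a* window holds 1 E2F match, 99 bases before the start, and the downstream window 1 CCAAT match. These are matches of letters, and binding was not measured.

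Over the cell cycle, the inhibitor genes followed different courses. *Cdkn3*, *Cdkn2c* and *Cdkn1b* were higher in G2M cells than in G1 cells in both cultures, and *Cdkn2a* was lower. To test this, the mean of each gene was taken over the cells of each culture and Seurat stage. Stages were compared with limma across all genes with the culture as a block. The spread is therefore how far the stage differences vary between the 2 cultures, drawn toward a trend over all genes. The S and G2M gene lists that define the Seurat stages hold 0 of the members. In G2M minus G1, 4 of the 4 members with a row passed an adjusted p of 0.05, 3 of them higher and 1 lower, where 38.1% of all genes passed (20.7% higher and 17.4% lower). In S minus G1, 3 of the 4 passed, 2 higher and 1 lower, against 27.8% of all genes (18.8% higher and 9.00% lower), and in G2M minus S 3 of the 4, each of them higher in G2M, against 14.3% (6.15% higher and 8.15% lower). With so many genes past the threshold, the pass itself sets the members little apart. The sizes below carry more, but they depend on the pseudocount, which is 1 here.

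*Cdkn3* (ENSMUSG00000037628, chromosome 14 of GRCm38, 46760541 to 46771669, plus strand) was low in G1 and S and high in G2M. Its mean was 0.15 in G1, 0.24 in S and 0.95 in G2M cells of culture 1, and 0.18, 0.24 and 0.92 in culture 2. The G2M mean of each culture lay far above its G1 and S means. G2M minus G1 was 0.77 on the log2 scale (SE 0.022, limma adjusted p = 5.2e-07), and G2M minus S was 0.69 (SE 0.022, limma adjusted p = 2.9e-06). *Cdkn3* was detected in 60.7% of the G2M cells of culture 1 (exact 95% interval 58.2% to 63.2%) and in 64.6% of those of culture 2 (62.3% to 66.9%). In G1 cells it was detected in 11.7% (10.5% to 13.1%) and 15.6% (14.5% to 16.8%). The intervals cover counting error only.

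The step of *Cdkn3* from G1 to S was small, 0.09 in culture 1 and 0.06 in culture 2 (mean 0.07, SE 0.022, limma adjusted p = 0.045). It missed the threshold under 5 of the 8 other settings of the test, with adjusted p from 0.090 without shallow and very deep cells to 0.30 with no replicate block. Along the position, the mean over cells from 0.75π to π was 0.38 in culture 1 and 0.31 in culture 2, and in the next arc, from π to 1.25π, it was 1.14 and 1.0. It was still high where *Cdkn2c* and *Cdkn1b* were back near their G1 means: from 1.5π to 1.75π the mean of *Cdkn3* was 0.80 and 0.87, although these arcs hold only 64 and 189 cells. In the arc that follows, from 1.75π to 2π, it was 0.14 and 0.18, near its lowest.

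*Cdkn2c* (ENSMUSG00000028551, chromosome 4, 109660876 to 109667189, minus strand), which encodes the Ink4 protein p18, climbed in steps through the cycle. In culture 1 its mean was 0.57 in G1, 0.82 in S and 1.32 in G2M cells, and in culture 2 it was 0.57, 0.84 and 1.35. Each stage stood above the previous one in both cultures. S minus G1 was 0.26 (SE 0.026, limma adjusted p = 0.00035), G2M minus S was 0.51 (SE 0.026, limma adjusted p = 2.0e-05), and G2M minus G1 was 0.77 (SE 0.026, limma adjusted p = 1.1e-06). With the stages of cyclone in place of Seurat's, which leave 133 and 56 cells in S, G2M minus S was 0.30 and did not pass (limma adjusted p = 0.12).

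Unlike *Cdkn3*, *Cdkn2c* was common in every stage. It was detected in 45.9% of G1 cells of culture 1 (interval 43.9% to 47.9%) and 41.2% of those of culture 2 (39.7% to 42.8%), and in 82.4% (80.4% to 84.2%) and 76.7% (74.6% to 78.7%) of G2M cells. Along the position it was higher from arc to arc already in S: from 0.5π to 0.75π the mean was 0.81 in culture 1 and 0.79 in culture 2, from 0.75π to π it was 1.12 and 1.3, and from π to 1.25π it was 1.39 and 1.53. From 1.25π to 1.5π it was 0.78 and 0.82. By the stages of SchwabeCC, another stage caller, the mean of *Cdkn2c* was highest in G2 (1.09 in culture 1 and 1.17 in culture 2) and that of *Cdkn3* in G2.M (0.61 and 0.73), the stage after it. SchwabeCC left 2451 and 3151 cells without a stage, and by the paper's account it wrongly puts cells of G0/G1 into other stages.

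*Cdkn1b* (ENSMUSG00000003031, chromosome 6, 134920401 to 134925513, plus strand), the gene of p27, was higher in G2M than in both other stages, which lay close together. Its mean was 0.38 in G1, 0.38 in S and 0.58 in G2M cells of culture 1, and 0.36, 0.37 and 0.54 in culture 2. G2M minus G1 was 0.19 (SE 0.019, limma adjusted p = 0.00023) and G2M minus S was 0.18 (SE 0.019, limma adjusted p = 0.00091). S minus G1 was 0.01 (SE 0.019, limma adjusted p = 0.69), so no difference was detectable between these stages. *Cdkn1b* was detected in 51.1% (48.6% to 53.7%) and 44.1% (41.7% to 46.5%) of G2M cells of cultures 1 and 2, and in 32.6% (30.7% to 34.5%) and 28.7% (27.3% to 30.2%) of G1 cells. With cyclone stages neither G2M difference passed (0.21 and 0.22, limma adjusted p = 0.051 and 0.15), and with no replicate block G2M minus S did not (limma adjusted p = 0.055).

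*Cdkn2a* (ENSMUSG00000044303, chromosome 4, 89274471 to 89294653, minus strand) was the member that was highest in G1. It encodes different proteins from different first exons: p19Arf, which acts on the p53 pathway, from the exon at 89294334 to 89294653, and the CDK inhibitor p16Ink4a from the exon at 89281986 to 89282192. Both transcripts share their last exon up to base 89274774, so that reads taken near the 3′ end cannot tell them apart and the level is a sum of both. The mean of *Cdkn2a* was 0.84 in G1, 0.62 in S and 0.63 in G2M cells of culture 1, and 0.86, 0.47 and 0.64 in culture 2. In both cultures G1 was the highest stage, and S was much lower in culture 2 than G2M, but not in culture 1. S minus G1 was -0.30 (SE 0.041, limma adjusted p = 0.0016) and G2M minus G1 was -0.21 (SE 0.041, limma adjusted p = 0.0058). G2M minus S was 0.01 in culture 1 and 0.17 in culture 2 (mean 0.09, SE 0.041, limma adjusted p = 0.19).

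With cyclone stages, *Cdkn2a* in S minus G1 was -0.17 (limma adjusted p = 0.16) and G2M minus G1 was -0.09 (limma adjusted p = 0.58), and G2M minus G1 also missed the threshold without the intensity trend (0.071) and with no replicate block (0.074). By SchwabeCC stages, which 2451 and 3151 cells lack, the mean was highest in cells staged G2, at 0.89 in culture 1 and 0.90 in culture 2, and not in M.G1 cells (0.67 and 0.75) or G1.S cells (0.65 and 0.50). The limits of SchwabeCC given for *Cdkn2c* and *Cdkn3* hold here too, and their part in these means was not tested. Along the position, the mean from π to 1.25π was 0.62 in both cultures, and the largest step between neighbouring arcs lay within the cells of G1 position. From 1.75π to 2π the mean was 0.91 in both cultures, with 1789 and 3149 cells, and on the other side of 0, from 0 to 0.25π, it was 0.62 and 0.59, with 670 and 842 cells. The median depth of these arcs differed little, with 18437 and 17834 UMIs in culture 1 and 13991 and 14776 in culture 2. In culture 2 *Cdkn2a* was lower still in the next arcs, at 0.49 from 0.25π to 0.5π and 0.42 from 0.5π to 0.75π. Culture 1 had 0.66 and 0.59 there.

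**Figure D1:**
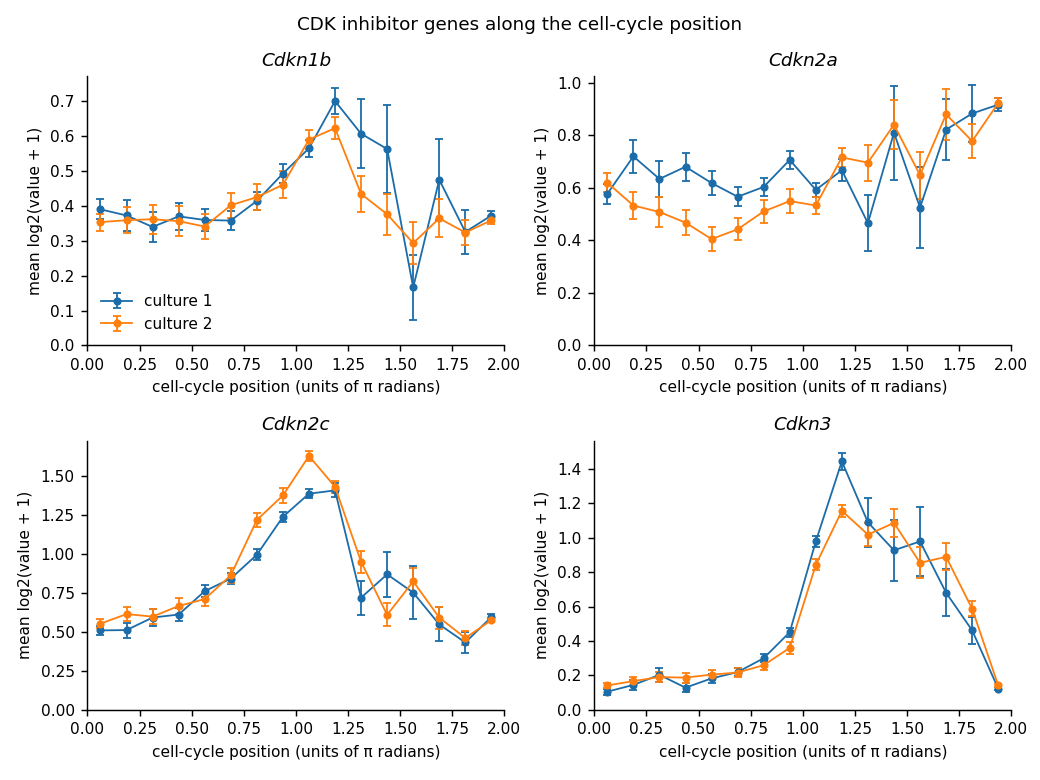
Mean log2(value + 1) of the 4 members with a row in 16 equal bins of the cell-cycle position (units of π), for culture 1 (blue) and culture 2 (orange), with bars of 1 SE over cells and a scale of its own in each panel. *Cdkn2c* and *Cdkn3* are highest past π, *Cdkn3* stays up longest, *Cdkn1b* has a low hump past π, and *Cdkn2a* is highest next to 2π, while the bars are wide between 1.25π and 1.75π, where culture 1 has 85 and 64 cells per arc.

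**Figure D2:**
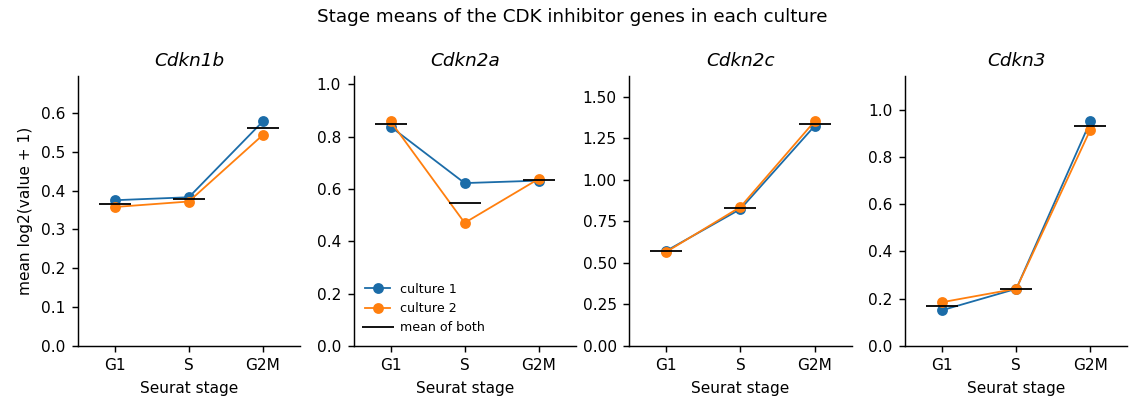
Mean log2(value + 1) of each member by Seurat stage (G1, S, G2M), with a point for each culture, a line joining the points of a culture and a black bar for the mean of both. *Cdkn1b*, *Cdkn2c* and *Cdkn3* are highest in G2M in each culture, and *Cdkn2a* is highest in G1, with S at 0.62 beside G2M at 0.63 in culture 1, and at 0.47 beside 0.64 in culture 2.

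Depth moved with the stages. Median UMIs per cell were 18355 in G1, 20463 in S and 21419 in G2M cells of culture 1, and 14104, 15402.5 and 16099.5 in culture 2, and the deposited values do not allow cells to be thinned to a common depth. When only cells with 10000 to 25000 UMIs were used, every stage difference of the members kept its direction and its side of the threshold except *Cdkn3* in S minus G1. No cell type that lacks these genes could be set apart, so the share of cells with a UMI from free RNA was not measured. The lowest share of any member in an arc was that of *Cdkn3* from 0 to 0.25π, at 9.55% of cells in culture 1 and 13.8% in culture 2.

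How much of the variation between single cells the position explained separated the members. A fit with 2 harmonics of the position gave *Cdkn3* an R² of 0.316 in culture 1 and 0.294 in culture 2, and *Cdkn2c* 0.167 and 0.191. *Cdkn1b* had 0.0243 and 0.0203, and *Cdkn2a* 0.0206 and 0.0373. The threshold of 0.05 was reached in each culture by 2 of these 4 genes and by 4.01% of all genes. Ranked by the lower R² of the cultures, *Cdkn3* was number 82 of 10666 genes, *Cdkn2c* 168, *Cdkn2a* 868 and *Cdkn1b* 879. For *Cdkn2a* and *Cdkn1b* the position thus left nearly all of the variation between cells unexplained. The authors' position is made from cell-cycle genes, and whether members are among them is not known here. With a position rebuilt from the 91 Seurat S and G2M genes of the table, which include no member, the lower R² was 0.276 for *Cdkn3*, 0.168 for *Cdkn2c*, 0.0181 for *Cdkn1b* and 0.0153 for *Cdkn2a*.

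**Figure D3:**
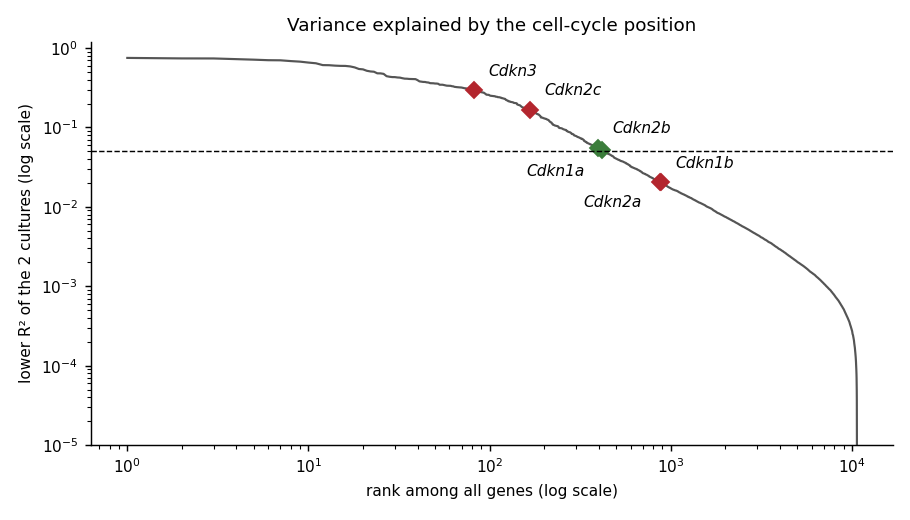
The lower R² of the 2 cultures for all 10666 genes against their rank, both on log scales, with the members in red, *Cdkn2b* and *Cdkn1a* in green and the threshold of 0.05 as a dashed line. *Cdkn3* (rank 82) and *Cdkn2c* (rank 168) lie above the line, and *Cdkn2a* (868) and *Cdkn1b* (879) below it, almost on top of each other.

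Periodic loess lines placed the maxima. For cultures 1 and 2 in turn, *Cdkn2c* was highest at 1.14π and 1.11π, *Cdkn1b* at 1.19π and 1.14π, *Cdkn3* at 1.21π and 1.33π and *Cdkn2a* at 1.72π and 1.79π. In both cultures the maxima of these smoothed lines came in the order *Cdkn2c*, *Cdkn1b*, *Cdkn3* and *Cdkn2a*. The maxima of *Cdkn2c* and *Cdkn1b*, and in culture 1 also those of *Cdkn1b* and *Cdkn3*, were close, and the cultures themselves differed by as much or more for *Cdkn3*, so the order of these 3 was not tested. The maximum of *Cdkn2a* was far from the rest in each culture, but lies where cells are few. From highest to lowest point, the line spanned 0.95 and 1.04 for *Cdkn3*, 0.78 and 0.85 for *Cdkn2c*, 0.33 and 0.48 for *Cdkn2a*, and 0.24 and 0.20 for *Cdkn1b*.

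Genes with the most similar course were sought over the 16 bins, by the lower Pearson r of the cultures. Nearest to *Cdkn3* were *Ccnb2* (0.983), *Cenpa* (0.978) and *Knstrn* (0.971), which encode a mitotic cyclin, the centromeric histone and a kinetochore protein. Nearest to *Cdkn2c* were *Nuf2* (0.969), *Knl1* (0.964) and *Spc25* (0.963), all of them genes of the outer kinetochore. Nearest to *Cdkn1b* were *Ccdc61* (0.905), *Ckap5* (0.879) and *Armt1* (0.871). For *Cdkn2a* they were *Atp5o* (0.826), *Ndufb6* (0.814) and *Cox5a* (0.811), which encode subunits of the respiratory chain and the ATP synthase. The bins share the cells and the position, and *Ccnb2*, *Cenpa*, *Nuf2* and *Ckap5* are themselves among the genes that define the Seurat stages, so these are descriptions of shape.

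Within G1 cells alone, the gene most like a member from cell to cell was another matter. *Cdkn2a* went most with *Gap43* (r = 0.26 in culture 1 and 0.28 in culture 2), *Cdkn2b* (0.28 and 0.20) and *Cdkn1a* (0.31 and 0.19). *Cdkn2b*, the gene of p15, is its neighbour on chromosome 4 (89306299 to 89311039, minus strand), and *Gap43* encodes a protein of growing neurites. For *Cdkn3* the nearest genes were *Pbk* (0.29 and 0.30), *Cenpa* (0.26 and 0.35) and *Pclaf* (0.24 and 0.26), proliferation genes. *Cdkn1b* and *Cdkn2c* had no close partner: their best lower r were 0.10, with *Actb*, and 0.07, with *Nudt4*. The points are cells of 1 library each and share its depth, and position within G1 was not held fixed. Between members, r in G1 cells lay from -0.065 (*Cdkn2a* with *Cdkn3*, culture 2) to 0.021 (*Cdkn1b* with *Cdkn2c*, culture 2).

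*Cdkn2a* was found more often in G1 cells in which its neighbour *Cdkn2b* was also found. In culture 1 it was detected in 66.5% of the 986 G1 cells with *Cdkn2b* (interval 63.5% to 69.5%) and in 41.1% of the 1454 without (38.5% to 43.6%). In culture 2 the shares were 59.0% of 1587 cells (56.6% to 61.5%) and 41.9% of 2344 cells (39.9% to 43.9%). Cells with *Cdkn2b* were deeper, with a median of 20461 against 16781 UMIs in culture 1 and 14761 against 13713.5 in culture 2. Within 4 parts of equal size by depth, the share stayed higher in cells with *Cdkn2b* in every part of both cultures, from 47.6% against 28.1% in the shallowest part of culture 1 to 66.9% against 52.3% in the deepest part of culture 2. The depth-scaled level of *Cdkn2a* showed the same, at 1.12 with and 0.65 without *Cdkn2b* in culture 1, and 1.07 and 0.71 in culture 2. Split by *Cdkn2c* instead, the level was 0.86 with and 0.82 without in culture 1, and 0.85 and 0.86 in culture 2. The neighbour was not alone in this: *Cdkn2a* was detected in 55.9% of G1 cells with *Cdkn1a*, which lies on another chromosome, and in 23.2% of those without in culture 1, and in 49.7% and 25.7% in culture 2. Cells without *Cdkn1a* were shallow, with a median of 11633 against 19049 UMIs in culture 1 and 11533.5 against 14211 in culture 2. Position within G1 was not held fixed in any of these splits. Both *Cdkn2a* and *Cdkn2b* were higher from 1.75π to 2π than from 0 to 0.25π, and the part of position was not tested.

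**Figure D4:**
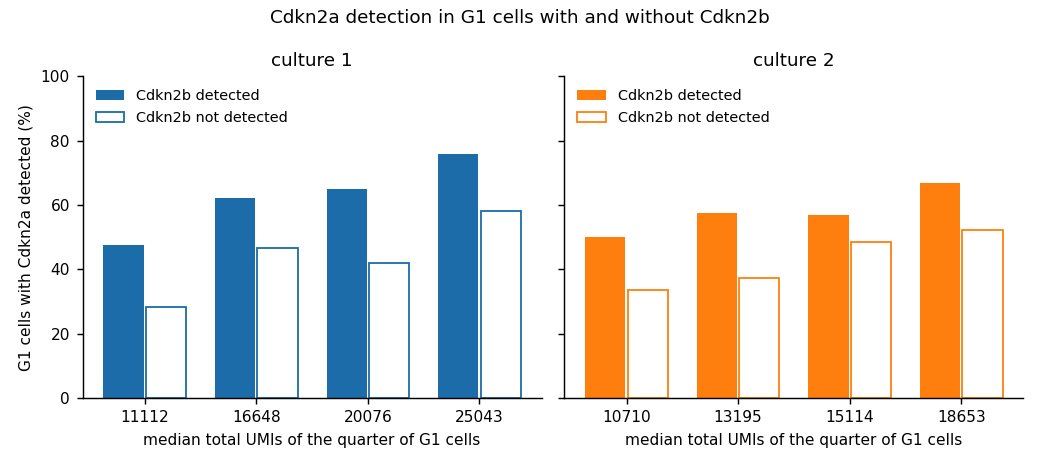
Share of G1 cells in which *Cdkn2a* was detected (percent), in 4 parts of G1 cells of equal size ordered by total UMIs (the median of each part is on the x axis), for cells with *Cdkn2b* detected (filled bars) and not detected (open bars), in culture 1 (left) and culture 2 (right). The filled bar is the higher of the pair in all 4 parts of each culture, and both kinds of bar tend to grow with depth. Position within G1 was not held fixed.

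*Cdkn2b* and *Cdkn1a*, the other inhibitor genes with a row, were both lower in S than in G1. *Cdkn2b* had a mean of 0.59 in G1, 0.24 in S and 0.25 in G2M cells of culture 1, and 0.61, 0.25 and 0.34 in culture 2. It fell from G1 to S by 0.36 (SE 0.024, limma adjusted p = 6.1e-05) and was lower in G2M than in G1 (-0.31, limma adjusted p = 7.6e-05). Like *Cdkn2a*, it was highest from 1.75π to 2π, at 0.68 and 0.67, and lower from 0 to 0.25π, at 0.35 and 0.37. For *Cdkn1a*, S minus G1 was -0.60 (SE 0.11, limma adjusted p = 0.0062), and G2M minus G1 was -0.18 (limma adjusted p = 0.23). By SchwabeCC stages *Cdkn1a* was highest in G2 (3.07 in culture 1 and 3.29 in culture 2). Along the position, however, it was highest from 1.75π to 2π (2.99 and 3.12). The *Cdkn1a* call was lost without the intensity trend (0.090), with no replicate block (0.076) and with cyclone stages (0.32).

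Because a cell can carry several inhibitors at a time, the members detected per cell were counted. All 4 were found together in 15% of G2M cells of culture 1 and 12% of those of culture 2, but in 0.943% and 1.07% of G1 cells. In S cells the shares were 2.60% and 1.39%. None of the 4 was found in 17.7% and 18.6% of G1 cells, against 2.99% and 3.26% of G2M cells. G2M cells were the deeper ones, and the part of depth in these shares was not tested.

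The targets of the inhibitors were compared in the same way. Of 12 listed CDKs and cyclins, 10 have a row, and 6 of these were higher and 0 lower in S than in G1 (median difference 0.35, against 0.00088 over all genes, of which 18.8% were called higher and 9.00% lower). In G2M minus G1, 6 were higher and 2 lower (median 0.16, against -0.00040, with 20.7% and 17.4% of all genes). In G2M minus S, 3 were higher and 5 lower (median -0.17, against -0.0026, with 6.15% and 8.15% of all genes). *Ccnb1* (1.98), *Cdk1* (1.89) and *Ccnb2* (0.85), the mitotic cyclins and their kinase, were much higher in G2M than in G1, with limma adjusted p of 4.0e-06, 3.5e-06 and 7.2e-07. *Ccnd2* (-0.50, limma adjusted p = 0.0016) and *Ccnd1* (-0.21, limma adjusted p = 0.018), D-type cyclins, were lower, although the call of *Ccnd1* was lost without the intensity trend (0.075), with no replicate block (0.15) and with cyclone stages (0.26). Of the 10 genes, 3 are in the lists that define the Seurat stages, among them *Cdk1* and *Ccnb2*, whose differences are therefore built in.

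Of 11 genes for turnover and transport of p27, 9 have a row. In S minus G1, 4 were higher and 1 lower (median 0.01, against 0.00088 over all genes, of which 18.8% were called higher and 9.00% lower). In G2M minus G1 also 4 and 1 passed (median -0.03, against -0.00040, with 20.7% and 17.4% of all genes). In G2M minus S, 2 and 1 passed (median 0.0011, against -0.0026, with 6.15% and 8.15% of all genes). *Skp2*, the receptor that marks p27 for destruction, had a mean of 0.18 in G1, 0.57 in S and 0.45 in G2M cells of culture 1, and 0.13, 0.51 and 0.27 in culture 2. It was higher in S than in G1 by 0.38 (SE 0.032, limma adjusted p = 0.00015), where *Cdkn1b* itself showed no detectable difference. The nuclear transport factors *Kpna2* (1.03, limma adjusted p = 4.2e-05) and *Xpo1* (0.34, limma adjusted p = 4.5e-05) were higher in G2M than in G1. *Rchy1*, a ubiquitin ligase, was lower in S (-0.19, limma adjusted p = 0.0028), a call lost with no replicate block (0.19) and with cyclone stages (0.67).

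Of 24 listed transcription regulators of the inhibitor genes, 19 have a row, with 10 higher and 1 lower in S than in G1 (median 0.03, against 0.00088 over all genes, of which 18.8% were called higher and 9.00% lower). In G2M minus G1, 11 were higher and 0 lower (median 0.09, against -0.00040, with 20.7% and 17.4% of all genes). In G2M minus S the calls were 3 higher and 4 lower, and 12 did not pass (median 0.0053, with 6.15% and 8.15% of all genes called). *Ezh2*, the methyltransferase of the Polycomb complex that is known to silence *Cdkn2a*, had a mean of 0.73 in G1, 1.92 in S and 1.89 in G2M cells of culture 1, and 0.77, 1.82 and 1.86 in culture 2. G2M minus G1 was 1.13 (SE 0.042, limma adjusted p = 1.5e-06). *E2f1* (0.61, limma adjusted p = 2.1e-05) and *Mybl2* (0.31, limma adjusted p = 3.6e-05), factors of the G1/S and G2/M programmes, were higher in S than in G1. *Foxo3*, a known activator of *Cdkn1b*, was the 1 gene lower in S, by a small amount (-0.04, limma adjusted p = 0.027), and that call was lost under 4 of the 8 other settings, with adjusted p from 0.056 to 0.46. *Cdkn1c* itself had no row, and of its 9 listed neighbours in the imprinted cluster 2 have one: *Cd81* was lower in G2M than in G1 (-0.54, limma adjusted p = 0.00026, but 0.081 with no replicate block), and *Nap1l4* was higher in S (0.16, limma adjusted p = 0.017), which was lost under 3 other settings with adjusted p up to 0.57.

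**Figure D5:**
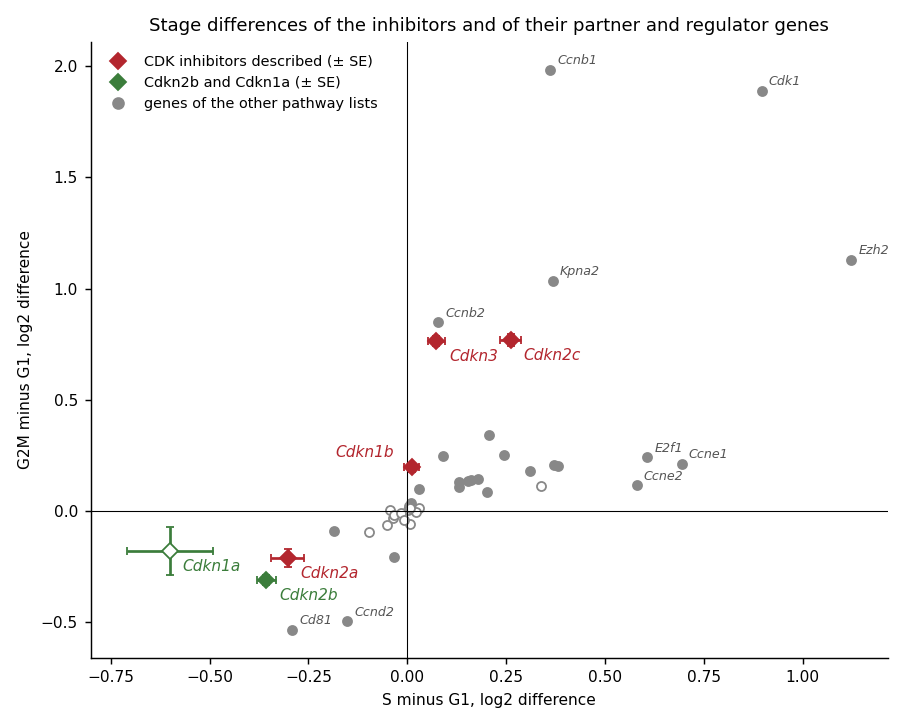
Log2 difference G2M minus G1 (y axis) against S minus G1 (x axis) of the members (red diamonds), of *Cdkn2b* and *Cdkn1a* (green diamonds) and of the genes of the other pathway lists (grey circles), filled where G2M minus G1 passed an adjusted p of 0.05 and with bars of 1 SE for the diamonds. *Cdkn3* and *Cdkn2c* lie high near *Ccnb2*, *Cdkn1b* lies just above the centre, and *Cdkn2a* lies below and left of it next to *Cdkn2b*.

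Cells with markers of other neural cell types were compared within G1, to see whether the members varied with them. With at least 3 detected markers of oligodendrocyte progenitors, of which 5 of 8 have a row and *Olig2* is found in 97.3% and 91.9% of all cells, 284 cells of culture 1 and 213 of culture 2 were set against 1109 and 2416 cells with at most 1. *Cdkn1b* was lower in the cells with markers in both cultures, at 0.31 against 0.39 and 0.29 against 0.36, but the mean difference of -0.077 was -0.015 when cells with at least 2 markers were taken. *Cdkn2a* was 0.70 against 0.83 in culture 1 and 0.84 against 0.86 in culture 2, and *Cdkn2c* moved in opposite directions, 0.44 against 0.61 and 0.64 against 0.55. *Cdkn3* was 0.16 against 0.17 and 0.13 against 0.20. Of these cells, 248 and 200 had exactly 3 markers, and 1047 and 1302 more G1 cells had 2, so the class is a range and not a cell type. No test was run on these values.

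Neuroblast and astrocyte markers reached 3 per cell in at least 50 G1 cells in culture 1 only. In the 57 cells with neuroblast markers, 53 of them with exactly 3, *Cdkn1b* was 0.53, against 0.38 in 2047 cells with at most 1 marker, and *Cdkn2a* was 0.59 against 0.86. With at least 2 markers these differences did not hold across the cultures. *Cdkn1b* was then 0.37 against 0.38 in culture 1 (393 cells with markers) and 0.38 against 0.35 in culture 2 (467 cells), and *Cdkn2a* was 0.72 against 0.86 and 0.87 against 0.86. Over cells of all stages with 3 or more neuroblast markers, *Cdkn2a* was 0.72 against 0.72 in culture 1 and 0.97 against 0.72 in culture 2, where 77 cells had the markers. There *Cdkn1b* was higher in the cells with markers in both cultures, at 0.49 against 0.43 and 0.51 against 0.40. The cells with markers were deeper, with a median of 23575.5 against 19188 UMIs in culture 1 and 21039 against 14418 in culture 2.

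In the 161 G1 cells of culture 1 with astrocyte markers, *Cdkn2c* was 0.75, against 0.52 in 1701 cells, at median depths of 22161 and 17143 UMIs. Among cells with 10000 to 25000 UMIs it was 0.76 against 0.53, a difference of the same size, with 102 cells with markers. With at least 2 markers it was 0.69 against 0.52 in culture 1 and 0.63 against 0.56 in culture 2.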

How the data were processed

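Single-cell RNA-seq of 2 replicate neurosphere cultures was analysed. The authors quantified spliced counts with Alevin (Salmon 1.3.0) against GRCm38, with cells outlying in depth, genes, mitochondrial share or doublet score removed, and no further filter or doublet caller was applied here. Their deposited expression values are a signal on a linear scale, scaled for the depth of each cell, in which 1 UMI takes a value that differs by gene and culture (5th to 95th percentile of the ratio of the cultures 0.595 to 1.55 over 4480 genes detected in 2% to 20% of cells). Total UMIs per cell are estimated counts as deposited by the authors, who also gave the position and the stages of SchwabeCC, cyclone and Seurat.

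Values were taken as log2(value + 1), with a pseudocount of 1. Means per culture and Seurat stage were compared in limma 3.58.1 (R 4.3.3) with an intensity trend, culture as a block and Benjamini-Hochberg adjustment over 10666 genes. The stages of a culture come from the same library, which pairs them. Cells are not replicates, so p-values rest only on how far stage differences vary between these 2 cultures, which may be technical. The spread of each gene is drawn toward a trend over all genes. R², loess (degree 2, span 0.3), likeness among 7039 genes with a mean of at least 0.1 and marker classes are descriptions, computed in Python 3.11.15 (pandas 2.3.3, scipy 1.17.1, numpy 2.4.6). Coordinates are those of GENCODE vM21 on GRCm38, and symbols were found for 10662 genes. On simulated data, limma called 94% of shifts of 0.1 and 100% of shifts of 0.2 in G2M minus G1 over 10666 genes. There the stage labels were shuffled within each culture, and the same shift was put into both cultures. Stage differences that vary between cultures were therefore absent, and these shares do not give the power on the real stages. The members, lists and tests were chosen with earlier results of these data known. Named genes are the members, up to 3 called genes per direction and pathway list with the largest difference, and the 3 genes most like each member.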

Additional observations from a re-analysis of the deposited data

How the results depend on the processing

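No stage difference of the members turned direction under any setting except that of *Cdkn1b* in S minus G1, which was not called in any of them: it was -0.0035 with cyclone stages and -0.0024 with arcs of the position. The number of genes called in S minus G1 was 2965, and 1867 without the intensity trend, 588 with no replicate block and 745 with cyclone stages. In G2M minus G1 it was 4066, and 894 with no replicate block and 628 with cyclone stages. In G2M minus S it was 1525, and 534 without the trend, 180 with no replicate block, 70 with cyclone stages and 903 with 10000 to 25000 UMIs. The share of calls that were higher was 67.6%, 54.4% and 43.0% in the 3 contrasts. With no replicate block it was 90.8%, 78.0% and 78.9%, with cyclone stages 80.1% and 85.7% in G2M minus G1 and G2M minus S, and with log2 of the mean value 57.2% and 43.5% in S minus G1 and G2M minus G1. It was 77.4% and 67.4% in these 2 with a pseudocount of 0.1, and 57.3% in G2M minus S without the trend and 53.7% there with arcs.

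Calls lost were those of *Cdkn1b* in G2M minus G1 (0.21 with cyclone) and G2M minus S (0.18 with no replicate block, 0.22 with cyclone), of *Cdkn2a* in S minus G1 (-0.17 with cyclone) and G2M minus G1 (-0.21 without the trend and with no replicate block, -0.087 with cyclone), of *Cdkn2c* in G2M minus S (0.30 with cyclone) and of *Cdkn3* in S minus G1 (0.074 without the trend and with no replicate block, 0.067 with 10000 to 25000 UMIs, 0.088 with log2 of the mean value, 0.041 with arcs). The cause was not tested. Without the block, the difference between cultures enters the spread. With a pseudocount of 0.1, G2M minus G1 was 2.09 for *Cdkn3*, 1.84 for *Cdkn2c*, 0.61 for *Cdkn1b* and -0.40 for *Cdkn2a*. With a pseudocount of 1 these were 0.77, 0.77, 0.19 and -0.21, so the sizes depend on this choice.

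At an R² threshold of 0.02, 890 genes passed in both cultures, with *Cdkn1b* (0.0203) and *Cdkn2a* (0.0206) among them, and at 0.1, 240 genes, where 428 passed at 0.05. The maximum of *Cdkn1b* moved from 1.17π to 1.23π with the rebuilt position and 1.10π with a span of 0.5. That of *Cdkn2a* moved from 1.75π to 1.80π with either and to 1.91π with a span of 0.1, which was chosen after seeing the data. That of *Cdkn2c* moved from 1.12π to 1.08π with a span of 0.1 and 1.03π with 0.5, and that of *Cdkn3* from 1.27π to 1.18π with a span of 0.5. Between cells with and without oligodendrocyte progenitor markers, *Cdkn1b* differed by -0.08, and by -0.048 over all cells and -0.015 with at least 2 markers. Over all cells *Cdkn2a* was at 0.017 and *Cdkn3* at 0.017, where both were below 0 in G1 cells. For *Cdkn3* the cultures went opposite ways over all cells, at 0.093 in culture 1 and -0.059 in culture 2. At least 4 markers was not run, since it left under 50 cells in a culture. Left to 1 culture at a time, the stage differences have no test and kept their direction, and the genes past the R² threshold numbered 454 to 597.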
